A study of Mus musculus with 6 samples.

Results

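The genes described here make haem or bring iron to the place where it is finished. They are the 8 enzyme genes Alas1, Alas2, Alad, Uros, Urod, Cpox, Ppox and Fech, and the mitochondrial iron importer Slc25a37. They were picked by symbol, and all 9 were found among the 16533 genes of the count tables. Haem synthesis starts in the mitochondrion, where 5-aminolevulinate synthase joins glycine and succinyl-CoA. Alas1 encodes the form of this enzyme found in most cells and Alas2, on the X chromosome, the form of red cell precursors. Alad, Uros and Urod then work in the cytosol, and Cpox, Ppox and Fech finish the ring and insert iron back in the mitochondrion. Reticulocytes, the youngest red cells in blood, have lost their nucleus but still hold mRNA for globin and haem synthesis.

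The samples were inferior vena cavae with the thrombus inside, taken 24 h after ligation in a model of deep vein thrombosis. Myeloid knockout mice (mKO) were Stingf/f Lyzm-Cre+/-, in which Cre is expressed from the lysozyme M (Lyz2) locus and acts in neutrophils, monocytes and macrophages. Control mice were Stingf/f with no Cre named, so both groups carried the floxed Sting1 allele and both were ligated. Each library came from a pool of 3 thrombi, with 3 libraries in the mKO group and 3 in the control group, so tests rest on the variation from pool to pool. Nothing in the labels says whether pools were processed apart, and age, sex and strain background are not stated in them.

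Library totals ran from 158579864 to 180068483 counts, and the lowest count of a haem gene was 495, for Uros. Sting1 had 22.7, 21.4 and 28.7 CPM in mKO libraries and 25.1, 31.4 and 27.1 CPM in control libraries, but a count over the whole gene and every cell in the vessel does not test a loss in myeloid cells. Lyz2, whose locus carries Cre in mKO mice, had 642.5, 1149 and 1153 CPM in mKO libraries and 1430, 1759 and 1885 CPM in control libraries. Genes of the vessel wall and of blood were both measured: 10 of 10 endothelial, 10 of 10 smooth muscle, 10 of 10 platelet and 12 of 12 neutrophil markers, and 16 of 20 erythroid markers. mKO library 3 and control library 3 had the highest summed level of skeletal muscle markers, at 223.9 and 63.8 CPM, against 31.6 CPM or less in the other libraries. CPM are counts per gene scaled by the corrected library size. Control library 2 had the lowest globin share of counts, 21.2%, and the highest mitochondrial share, 14.4%.

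Sequences just before the start of transcription are shown for 3 genes because they set the erythroid form of the first enzyme beside its general form and beside Cpox, an enzyme from the later mitochondrial part of the pathway. RefSeq windows from build GRCm38.p6, each with 250 bases before the annotated start and 50 after it, were found for 7 of the 9 genes. They lie at chrX:150547167-150547466 on the plus strand for Alas2, chr9:106247905-106248204 on the minus strand for Alas1 and chr16:58669958-58670257 on the plus strand for Cpox. Capitals mark AGATAA or TGATAA on either strand, the letters read by GATA factors such as the erythroid GATA1, and the palindrome read by the respiratory factor NRF1, spelled out by the capitals of the Alas1 line.
Alas2: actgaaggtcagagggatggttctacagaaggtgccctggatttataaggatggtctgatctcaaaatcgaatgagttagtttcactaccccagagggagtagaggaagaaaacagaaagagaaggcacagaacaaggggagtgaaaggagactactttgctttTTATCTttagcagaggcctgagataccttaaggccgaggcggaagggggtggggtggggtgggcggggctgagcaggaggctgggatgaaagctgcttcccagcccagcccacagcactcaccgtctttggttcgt
Alas1: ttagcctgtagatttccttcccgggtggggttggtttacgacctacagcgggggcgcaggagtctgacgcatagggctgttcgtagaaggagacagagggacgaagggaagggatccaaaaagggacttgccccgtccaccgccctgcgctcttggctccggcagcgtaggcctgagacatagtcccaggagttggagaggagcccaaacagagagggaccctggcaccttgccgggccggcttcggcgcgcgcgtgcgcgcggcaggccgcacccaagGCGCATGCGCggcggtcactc
Cpox: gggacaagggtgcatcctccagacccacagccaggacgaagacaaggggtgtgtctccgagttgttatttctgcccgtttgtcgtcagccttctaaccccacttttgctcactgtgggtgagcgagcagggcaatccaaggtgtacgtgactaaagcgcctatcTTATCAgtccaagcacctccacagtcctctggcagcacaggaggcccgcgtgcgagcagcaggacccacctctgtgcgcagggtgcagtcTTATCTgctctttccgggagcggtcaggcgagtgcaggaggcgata
The Alas2 window held 1 GATA match, whose first base lay at -86 counted from the start, and no NRF1 match. The Alas1 window held no GATA match and 1 NRF1 match, at position 30 after the start. Alas1 has a second annotated start, from which the same match lies upstream, at -195. Cpox held 2 GATA matches, at -86 and at position 5. A GATA match occurred in 18.6% of all 32851 windows of this length and an NRF1 match in 0.971%. The shorter letters CCNCNCCC, read by KLF factors such as the erythroid KLF1, matched 4 times in the Alas2 window, with overlaps between the matches, 2 times in that of Alas1 and 1 time in that of Cpox. They matched in at least 1 window of each of the 7 genes and in 49.5% of all windows, so they do not set Alas2 apart. Among the other haem genes, the windows of Alad, Urod and Ppox and the first window of Uros had no GATA match, and the second window of Uros had 1. These matches describe letters and do not show binding.

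Transcript levels differed widely along the pathway. Levels between genes were compared as CPM per kb of exon, with exon lengths from an annotation of build GRCm38. Each length counted every base in any annotated exon of the gene, which gave 7198 bases for Fech and 1821 for Ppox. The order of genes depends on these lengths. Alas2 stood highest by far, at 466.4 to 946.8 CPM per kb over the 6 libraries. Slc25a37 followed at 33.7 to 57.9 CPM per kb and did not overlap with Alas1, which ranged from 16.2 to 28.5 CPM per kb. Below them, neighbouring ranges overlapped: Ppox had 13.6 to 19.7, Fech 7.62 to 13.7 and Urod 8.05 to 11.1 CPM per kb. Alad, at 3.73 to 6.04 CPM per kb, Cpox, at 1.78 to 2.48, and Uros, at 1.36 to 1.61, were lowest, and these 3 ranges overlapped neither each other nor that of Urod. Per kb, Alas2 exceeded Alas1 by 27.8, 34.1 and 35.1 times in mKO libraries and by 22.7, 28.9 and 28.6 times in control libraries. The plot of levels by library shows CPM not divided by exon length, so its order differs. There Fech, at 54.8 to 98.5 CPM, lies above Ppox, at 24.7 to 35.8 CPM.

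**Figure D1:**
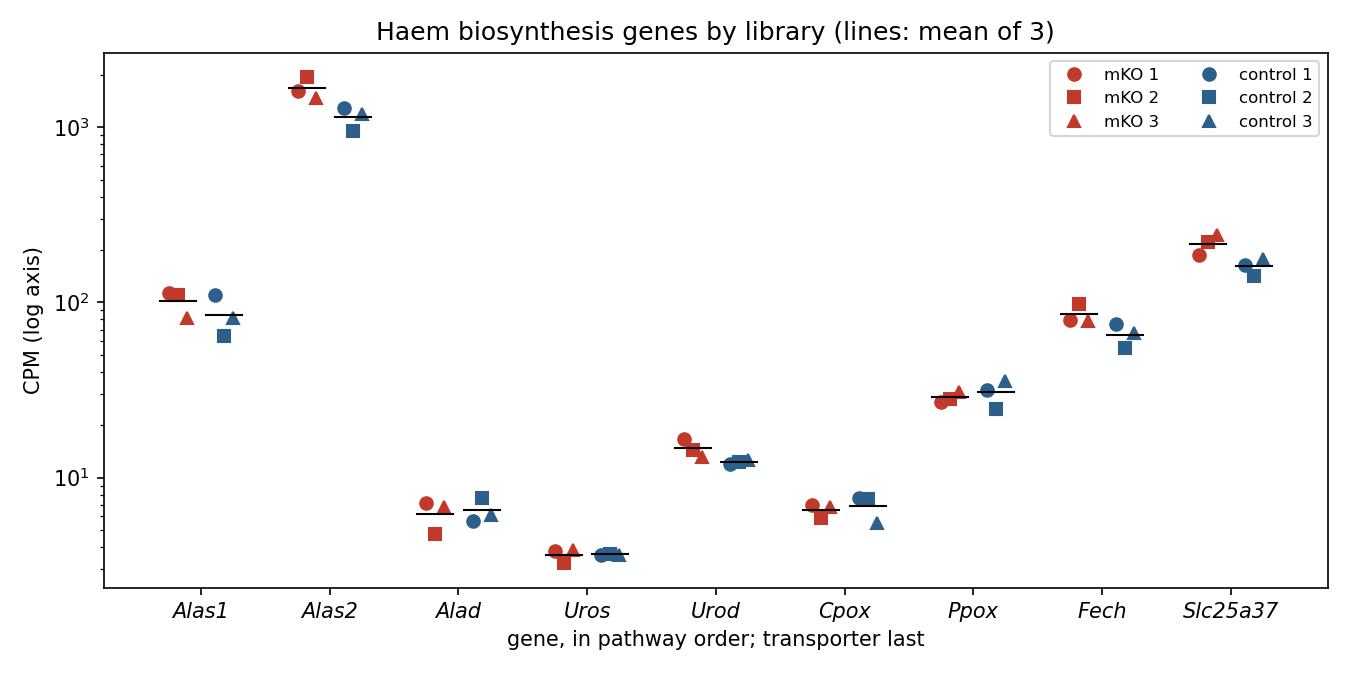
Level of each haem gene in CPM (log axis) in the 3 mKO and the 3 control libraries, with a line at each group mean and a symbol for each library. Alas2 lies at 950.1 to 1929 CPM in every library and Uros at 3.24 to 3.83 CPM, and mKO lies wholly above control for Alas2, Urod, Fech and Slc25a37.

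The comparison of genotypes is between ligated veins of floxed Sting1 mice with Lyzm-Cre and those with no Cre named. Cre is meant to remove STING, an adaptor that signals when DNA is sensed in the cytosol, from myeloid cells. Loss of STING and the presence of Cre cannot be told apart in this design. None of the 9 haem genes passed an adjusted p of 0.05 in edgeR's quasi-likelihood test, where 0% of all 16523 genes tested passed and 1960 (11.9%) had an unadjusted p under 0.05. Adjusted p ran from 0.354 for Alas2 to 0.992 for Uros, so nothing below is called a change. DESeq2, which called 462 genes (2.8%), and limma voom, which called 0, also called none of the 9. At an unadjusted p under 0.05, edgeR listed 3 of the 9 genes, Alas2, Slc25a37 and Fech, all higher in mKO, where 5.6% of all genes were listed as higher. In bulk tissue, fewer cells of a type and less RNA per cell cannot be told apart.

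All 3 mKO libraries stood above all 3 control libraries for 4 of the 9 genes, Alas2, Urod, Fech and Slc25a37, where 8.76% of all genes did so. All 3 mKO libraries stood below for 0 of the 9, where 9.39% of all genes did so. The median log2 fold change was 0.25 over the 9 genes and -0.03 over all genes tested. Without control library 2, the median of the 9 genes was 0.08.

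Alas2, the erythroid first enzyme (ENSMUSG00000025270), had 1614, 1929 and 1463 CPM in mKO libraries and 1286, 950.1 and 1194 CPM in control libraries. The groups did not overlap, and mKO library 2 was highest and control library 2 lowest. The mean was 1668 ± 238 CPM in mKO and 1144 ± 174 CPM in control (SD, n = 3 each), giving a log2 fold change of 0.54 (SE 0.19) and, in edgeR, an adjusted p of 0.354. The adjusted p was 0.0629 by DESeq2. In the annotation 15.3% of the exon length of Alas2 is shared with Apex2 on the opposite strand, and the strand setting of the counts is not given. Apex2 itself, a DNA repair nuclease, had 3.86 to 4.91 CPM in mKO and 4.14 to 5.41 CPM in control.

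Alas1, the general first enzyme (ENSMUSG00000032786, chromosome 9), had 113.0, 109.8 and 81.0 CPM in mKO libraries and 110.3, 63.9 and 81.3 CPM in control libraries. The groups overlapped: control library 1 lay with the higher mKO libraries, and mKO library 3 lay just below control library 3. Its log2 fold change was 0.25 (SE 0.22), with an edgeR adjusted p of 0.642. Leaving out control library 2 brought the value to 0.08. Of its exon length, 11.7% is shared with the antisense gene 4930500F10Rik.

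Fech, ferrochelatase, which puts iron into the ring (ENSMUSG00000024588, chromosome 18), had 79.3, 98.5 and 78.4 CPM in mKO libraries and 75.1, 54.8 and 66.7 CPM in control libraries. The gap between groups was narrow, with mKO library 3 just above control library 1. Its log2 fold change was 0.38 (SE 0.16), with an edgeR adjusted p of 0.407. Slc25a37, mitoferrin 1, which carries iron into the mitochondria of red cell precursors (ENSMUSG00000034248, chromosome 14), had 185.5, 221.5 and 241.8 CPM in mKO libraries and 163.0, 140.6 and 177.5 CPM in control libraries. Here mKO library 3 was the highest, whereas it was the lowest of the mKO libraries for Alas2 and Fech. The log2 fold change of Slc25a37 was 0.43 (SE 0.16), with an edgeR adjusted p of 0.364. Of its exon length, 9.13% is shared with the annotated gene Gm31748.

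Among the middle enzymes, Urod, uroporphyrinogen decarboxylase (ENSMUSG00000028684, chromosome 4), was the one whose groups did not overlap. It had 16.6, 14.4 and 13.1 CPM in mKO libraries and 11.99, 12.3 and 12.6 CPM in control libraries, so the control pools were tightly grouped and mKO library 3 lay just above them. Its log2 fold change was 0.25 (SE 0.12), with an edgeR adjusted p of 0.439.

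The other 4 enzymes overlapped between groups, with log2 fold changes from -0.09 to -0.0044. Alad, which joins aminolevulinate into porphobilinogen (ENSMUSG00000028393, chromosome 4), had 7.15, 4.74 and 6.76 CPM in mKO libraries and 5.66, 7.67 and 6.15 CPM in control libraries. It was lowest in mKO library 2 and highest in control library 2, the reverse of Alas2. Uros, uroporphyrinogen III synthase (ENSMUSG00000030979, chromosome 7), had 3.83, 3.24 and 3.83 CPM in mKO libraries and 3.63, 3.67 and 3.63 CPM in control libraries. Of all 9 genes, Uros varied least over the 6 libraries. Cpox, coproporphyrinogen oxidase (ENSMUSG00000022742, chromosome 16), had 6.94, 5.88 and 6.82 CPM in mKO libraries and 7.68, 7.59 and 5.51 CPM in control libraries. Ppox, protoporphyrinogen oxidase (ENSMUSG00000062729, chromosome 1), had 27.0, 28.2 and 30.9 CPM in mKO libraries and 31.4, 24.7 and 35.8 CPM in control libraries. For both, the control libraries spread more widely than the mKO libraries. The edgeR log2 fold changes were -0.06 (SE 0.20) for Alad, -0.0044 (SE 0.15) for Uros, -0.08 (SE 0.16) for Cpox and -0.09 (SE 0.15) for Ppox, with adjusted p from 0.795 to 0.992.

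**Figure D2:**
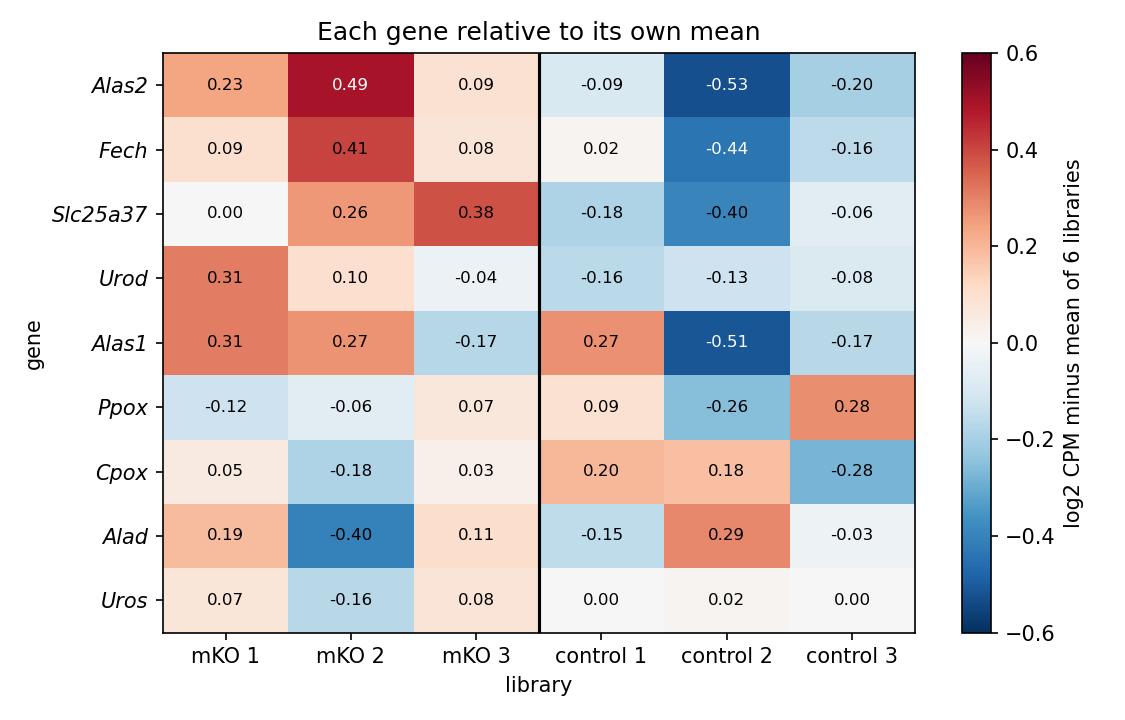
Log2 CPM of each haem gene minus its own mean over the 6 libraries, with mKO libraries left of the line and control libraries right of it. Alas2 and Fech have closely similar patterns, from 0.49 and 0.41 in mKO library 2 to -0.53 and -0.44 in control library 2, while Alad has -0.40 and 0.29 in the same libraries.

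The profiles over the 6 libraries were compared by the root mean square difference of log2 CPM, each gene centred on its own mean. The closest pair among the 9 genes was Alas2 and Fech, at 0.09. Alas1 was nearer to Fech, at 0.18, than to Alas2, at 0.21. Alad stood 0.50 from Alas2, the widest gap among the pairs. For scale, the root mean square of Alas2 about its own mean was 0.33. Among 13893 genes with a mean of at least 1 CPM, the nearest to Alas2 were Ptpn6 (0.03), Sqstm1 (0.03), Tnfrsf1b (0.03), Abcg1 (0.04) and Gm15452 (0.04). The nearest to Alas1 were Bst1 (0.04), Tceanc (0.05), Zfp119b (0.05), Hsd17b11 (0.05) and Mmp25 (0.06). These distances describe 6 libraries that share 1 fit of scaling factors, and no test was made of them.

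Ratios of counts within a library need no scaling between libraries. Alas2 outnumbered Alas1 by 14.3, 17.6 and 18.1 times in mKO libraries and by 11.7, 14.9 and 14.7 times in control libraries. The ranges overlapped, since mKO library 1 lay below control libraries 2 and 3. The log2 ratio was 0.28 higher in mKO (SD 0.18 in mKO and 0.20 in control, n = 3 each), with an exact two-sided permutation p of 0.3, where 3 against 3 cannot go below 0.1. A difference between genotypes in the balance of both forms of the first enzyme was thus not shown.

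Per 1000 counts of the 4 adult globin genes, Alas2 had 5.999, 6.82 and 6.16 counts in mKO libraries and 5.15, 4.75 and 4.63 counts in control libraries. The groups did not overlap, and the log2 difference was 0.38 (SD 0.10 in mKO and 0.08 in control, n = 3 each; exact two-sided permutation p 0.1, the smallest possible). This ratio, and those that follow, were chosen after the values were seen. Alas1 per 1000 globin counts was 0.420, 0.388 and 0.341 in mKO libraries and 0.442, 0.320 and 0.315 in control libraries, and overlapped. Per 100 Alas2 counts, Fech had 4.92, 5.11 and 5.36 in mKO libraries and 5.84, 5.77 and 5.58 in control libraries. Fech was therefore lower relative to Alas2 in every mKO library (log2 difference -0.16, exact two-sided permutation p 0.1), although both genes were higher in mKO by CPM. Slc25a37 per 100 Alas2 counts was 11.5, 11.5 and 16.5 in mKO libraries and 12.7, 14.8 and 14.9 in control libraries, and overlapped. Alas2 supplied 78.6%, 79.9% and 76.0% of all counts of the 9 genes in mKO libraries and 75.9%, 75.1% and 75.4% in control libraries, so the lowest mKO share lay barely above the highest control share.

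**Figure D3:**
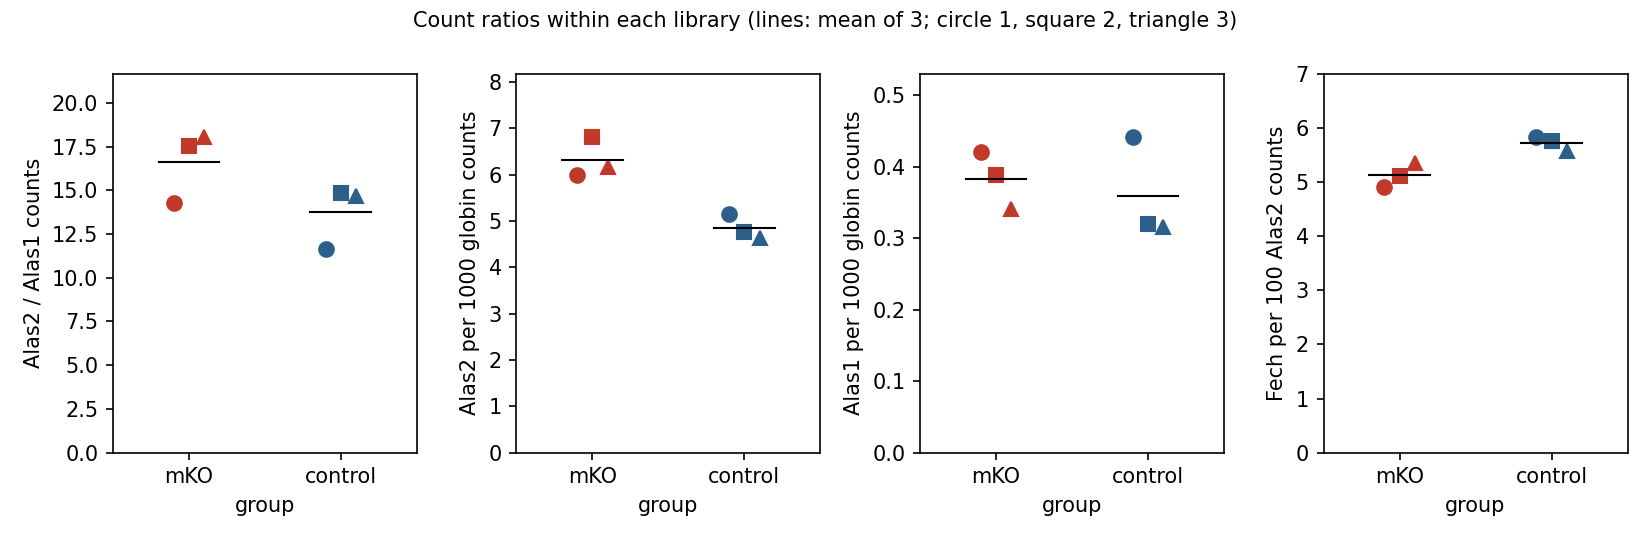
Count ratios within each library for the mKO and control groups, with a line at each mean: Alas2 over Alas1, Alas2 and Alas1 per 1000 globin counts, and Fech per 100 Alas2 counts. Alas2 per 1000 globin counts is 5.999 to 6.82 in mKO and 4.63 to 5.15 in control, while Alas1 overlaps between groups.

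Most other red cell genes, 13 of 16 erythroid markers, lay on the same side as Alas2. The 16 erythroid markers had a median log2 fold change of 0.67, and for 10 of them all mKO libraries stood above all control libraries, where 8.76% of all genes did so. EdgeR called 0 of the 16, with 9 at an unadjusted p under 0.05 (11.9% of all genes), and DESeq2 called 8 as higher, where it called 1.47% of all genes as higher. Car2, carbonic anhydrase 2, had 31.8, 27.6 and 18.1 CPM in mKO libraries and 11.98, 11.3 and 10.8 CPM in control libraries. Epb42, of the red cell membrane skeleton, had 3.49, 2.98 and 2.32 CPM in mKO libraries and 1.36, 1.18 and 1.43 CPM in control libraries. Their log2 fold changes, 1.19 (SE 0.20) and 1.15 (SE 0.22), were larger than that of Alas2, with edgeR adjusted p of 0.154 and 0.188. Alas2 over the summed erythroid markers was 1.97, 1.92 and 1.86 in mKO libraries and 1.95, 1.60 and 1.71 in control libraries, and overlapped. The globins themselves had log2 fold changes of 0.09 to 0.26, with 0.26 (SE 0.19) for Hbb-bt and 0.21 (SE 0.21) for Hba-a2, and their groups overlapped. Hba-a1 and Hba-a2 are near-identical copies, so the split of reads between them is uncertain.

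Of 7 erythroid transcription factors listed, 6 were tested, since Klf1 was not among the genes of the count tables. The 6 had a median log2 fold change of -0.11. Groups without overlap were seen for 0 of the 6, where 18.2% of all genes had them, so this count is near the background. Gata1, which also acts in megakaryocytes, had 5.55, 12.3 and 7.31 CPM in mKO libraries and 12.2, 16.0 and 15.5 CPM in control libraries (log2 fold change -0.79, SE 0.29, edgeR adjusted p 0.371). Tal1, also shared with megakaryocytes, had a value of -0.36 (SE 0.24). The 10 platelet markers summed to 3268 to 4980 CPM in mKO and 4347 to 6425 CPM in control, all with negative log2 fold changes. The part of platelets in the values of Gata1 and Tal1 was not tested.

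Beyond the 9 genes, 14 genes of haem synthesis and mitochondrial transport were read from the same fit, and edgeR called 0 of them, with 2 at an unadjusted p under 0.05, near the 11.9% of all genes. Their median log2 fold change was -0.03. Tspo2, the red cell form of the translocator protein, had 7.17, 7.32 and 6.18 CPM in mKO libraries and 3.79, 3.66 and 3.29 CPM in control libraries. It was the 1 gene of the 14 that DESeq2 called (adjusted p 5.31e-07), where DESeq2 called 2.8% of all genes. In edgeR its log2 fold change of 0.95 (SE 0.14) had an adjusted p of 0.134. That was the smallest value reached in the edgeR fit, and Tspo2 was not the only gene at it. Slc25a39, a mitochondrial glutathione carrier, had a log2 fold change of 0.34 (SE 0.14, edgeR adjusted p 0.402). Slc25a38, which brings in glycine for the first step, had 15.1, 15.8 and 13.9 CPM in mKO libraries and 14.4, 14.4 and 17.3 CPM in control libraries, with a log2 fold change of -0.04 (SE 0.12).

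**Figure D4:**
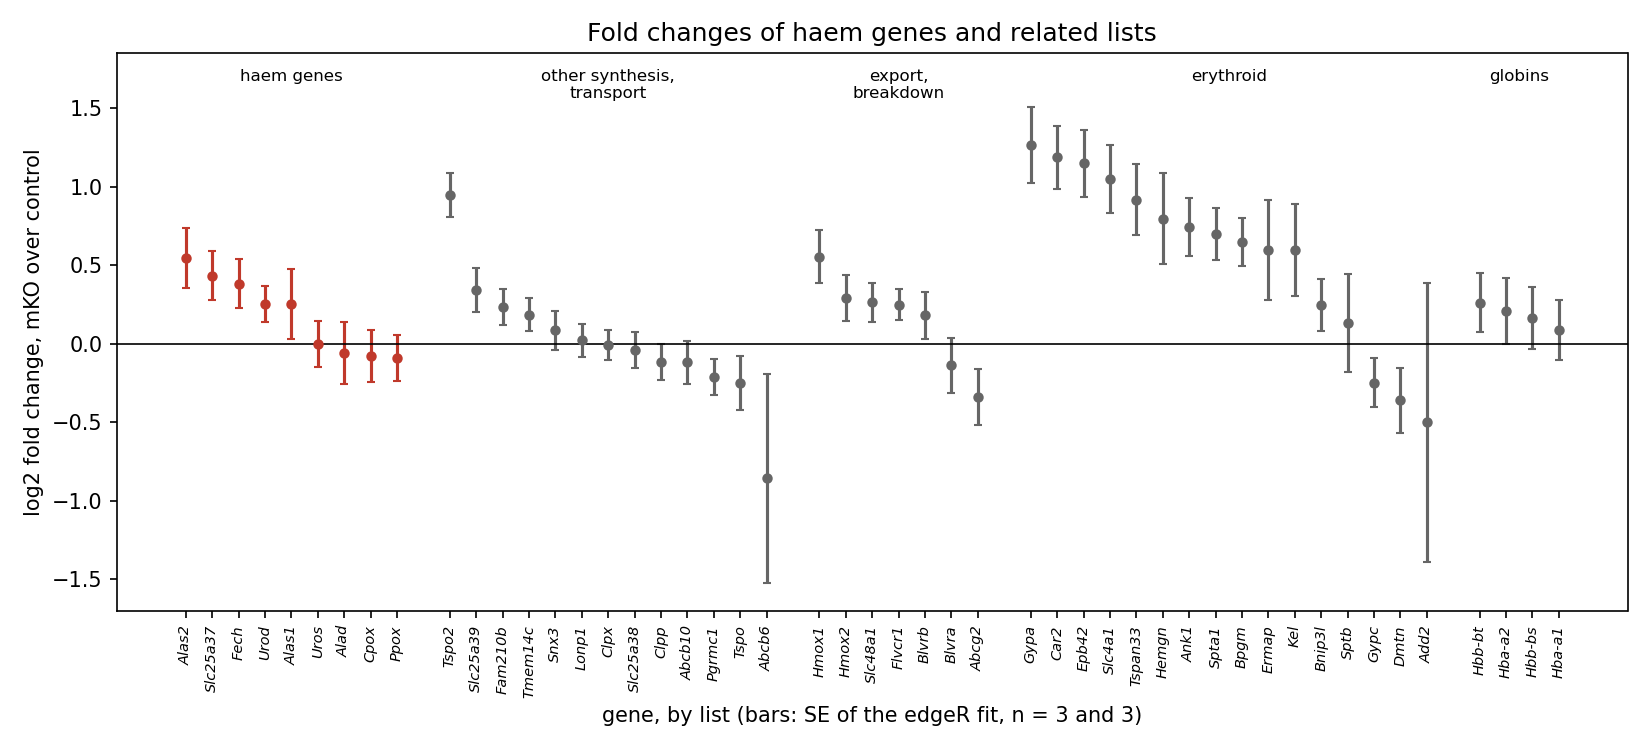
EdgeR log2 fold changes, mKO over control, with SE bars (n = 3 each) for the 9 haem genes and for genes of 4 other lists. Haem genes run from -0.09 for Ppox to 0.54 for Alas2, and Tspo2 lies at 0.95. The erythroid markers run from -0.50 to 1.27, with 13 of 16 positive, Car2 at 1.19 and Epb42 at 1.15.

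Iron supply and iron-sulfur cluster assembly, both needed by the pathway, gave 0 edgeR calls among 11 and 14 genes tested, with median log2 fold changes of 0.13 and -0.05. At an unadjusted p under 0.05, the share of which was 11.9% over all genes, there were 0 and 1, and DESeq2 called 0 in both lists. Ftl1, the ferritin light chain, had 5094, 4891 and 4531 CPM in mKO libraries and 3877, 3571 and 4250 CPM in control libraries, without overlap (log2 fold change 0.31, SE 0.16, edgeR adjusted p 0.480), and Pcbp1, an iron chaperone, had 0.22 (SE 0.13). Hscb, a co-chaperone of cluster assembly, had 10.1, 8.60 and 6.78 CPM in mKO libraries and 6.31, 6.45 and 5.93 CPM in control libraries (log2 fold change 0.44, SE 0.16, edgeR adjusted p 0.365). The ferredoxin Fdx2 had -0.57 (SE 0.39). Of 7 genes for haem export and breakdown, 0 were called by edgeR, 2 had an unadjusted p under 0.05 (11.9% of all genes), and the median was 0.25. Hmox1, haem oxygenase 1, which opens the haem ring, had 1195, 1504 and 1237 CPM in mKO libraries and 922.4, 799.3 and 958.4 CPM in control libraries (log2 fold change 0.55, SE 0.17, edgeR adjusted p 0.312, DESeq2 adjusted p 0.0150). Hmox1 counts per Alas2 count were 0.740, 0.780 and 0.846 in mKO libraries and 0.717, 0.841 and 0.803 in control libraries, and overlapped. Flvcr1, a haem exporter, had a log2 fold change of 0.25 (SE 0.10). Among 4 tested regulators of Alas1 the median was -0.12. The coactivator Ppargc1a had 0.329, 0.223 and 0.275 CPM in mKO libraries and 1.40, 0.565 and 0.316 CPM in control libraries, and Nrf1, whose letters stand in the Alas1 window, had a log2 fold change of 0.20 (SE 0.14).

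Marker sums of endothelial cells and adipocytes did not overlap between the groups either. Summed endothelial markers were 698.6 to 847.3 CPM in mKO and 930.9 to 1072 CPM in control, without overlap, and 10 of 10 had negative log2 fold changes. Summed adipocyte markers were 665.0 to 921.5 CPM in mKO and 1093 to 1256 CPM in control. Fabp4 and Cfd had by far the highest levels in this sum. All mKO libraries stood below all control libraries for 5 of the 9 adipocyte markers tested, among them Fabp4 and Cfd, where 9.39% of all genes did so. Adipoq and Plin1 overlapped between groups. Smooth muscle markers, at 713.8 to 1572 CPM in mKO and 1275 to 3214 CPM in control, overlapped and were highest in control library 2, where Alas2, Alas1, Fech and Slc25a37 were lowest. Summed erythroid markers were 787.4 to 1004 CPM in mKO and 594.1 to 696.8 CPM in control, without overlap. Neutrophil markers, at 13888 to 19299 CPM in mKO and 9772 to 16101 CPM in control, overlapped. The sums of neutrophil markers, erythroid markers and globins were each highest in mKO library 2 and lowest in control library 2, as Alas2 was. Fibroblast markers, at 585.7 to 999.4 CPM in mKO and 667.3 to 1292 CPM in control, overlapped. Monocyte and macrophage markers, at 3295 to 4286 CPM in mKO and 3477 to 4024 CPM in control, overlapped as well. Their sum includes Lyz2, the gene of the Cre locus, which had a log2 fold change of -0.78 (SE 0.26). The other 11 of these 12 markers had positive log2 fold changes, and no sum was made without Lyz2. The part of these differences in the values of the haem genes was not tested.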

How the data were processed

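Gene expression was measured by sequencing of oligo(dT)-selected mRNA from 6 pools, 3 mKO and 3 control. The authors deposited untransformed counts of reads, 1 table per pool, for 16533 genes. The submitters' processing notes name featureCounts 2.0.1, HISAT2 2.1.0, Trim Galore 0.4.0 and FastQC 0.11.8, and the build GRCm39. The strand setting and annotation release were not found in the labels.

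The test was that of edgeR 4.0.16, run in R 4.3.3 (quasi-likelihood F-test, TMM, robust dispersion, default filter, 16523 genes tested, Benjamini-Hochberg threshold 0.05), with the SE implied by the F statistic. CPM used TMM-scaled library sizes, and log2 CPM a prior count of 2. Alternatives were DESeq2 1.42.0, limma 3.58.1 voom, other scalings and filters, left-out gene classes, a replicate block and each library left out. Ratios were tested by exact permutation. The fits were tested on simulated data, on which DESeq2 made more false calls than edgeR. The simulated counts were drawn with dispersions estimated by edgeR, so they cannot decide which tool is right on the real counts. Exon lengths and overlaps came from GENCODE M21 (build GRCm38), which differs from the build of the counts.

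The 9 genes and the gene lists were chosen with earlier results of these data known. Genes named outside the 9 were Slc25a38, the 2 genes with the smallest p in each pathway, erythroid and globin list, and the 5 nearest profiles to Alas1 and to Alas2. Apex2, 4930500F10Rik and Gm31748 were added for their overlaps, and Hba-a1 as the near-copy of Hba-a2. Sting1 and Lyz2 were added as the floxed gene and the gene of the Cre locus. The values of 1 gene of the list of other synthesis and transport genes are not reported here. Hepatocyte and adrenal cortex lists were not used, since only 1 of 10 and 3 of 8 of their genes were tested. No replicate pair held identical counts or agreed within sampling noise (chi-square per degree of freedom of at least 213 within groups).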

Additional observations from a re-analysis of the deposited data

How the results depend on the processing

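The count of called haem genes stayed at 0 under every alternative run. The genes called among all tested numbered 462 with DESeq2, 6 without mKO library 3 and control library 3 together (added after seeing the data) and 0 to 7 with single libraries left out, against 0 in the reported fit, and the cause was not tested. With single libraries left out, the median log2 fold change of the 9 genes ran from 0.081 (without control library 2) to 0.33, and it was 0.35 without mKO library 3 and control library 3. The log2 fold change stayed positive for Alas2 (0.43 to 0.64), Slc25a37 (0.34 to 0.53), Fech (0.27 to 0.49), Urod (0.16 to 0.33) and Alas1 (0.08 to 0.48) with single libraries left out. The signs of 3 genes near 0 turned: Alad ran from -0.17 to 0.10, Ppox from -0.23 to 0.034 and Uros from -0.045 to 0.072 with single libraries left out, and Uros was 0.017 with DESeq2, with RLE size factors and without globin genes, and 0.0011 without globin, immunoglobulin and mitochondrial genes. The Alas2 to Alas1 log2 ratio ran from 0.16 to 0.38 with single libraries left out, and the Alas2 to globin ratio from 0.33 to 0.43. The deviations of same-numbered libraries from their group means correlated at -0.14, -0.15 and -0.27, none of them positive. With 3 libraries per group, such values cannot show whether same-numbered pools were handled together. The library numbered 3 had the highest skeletal muscle sum in both groups. With the replicate number as a block, edgeR called 0 genes, the median of the 9 genes was 0.25 and the log2 Alas2 to Alas1 ratio was 0.28 (exact sign-flip p 0.25, the smallest that 3 pairs allow). The genes with all mKO libraries above all control libraries numbered 4 of 9 with total counts, where the share over all genes was 6.26%, and 4 of 9 with RLE size factors, where it was 9.27%. Total counts without scaling factors gave Alas2 0.49.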
